A study of Mus musculus with 60 samples.

Results

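The comparison described here set the 10 hippocampal libraries of NLGF mice aged 24 weeks against the 10 libraries of wild-type (WT) mice of the same age. Its members were the columns of the deposited gene count table whose labels give week 24, 20 of 60 samples in all. NLGF is the AppNL-G-F line, in which familial Alzheimer's disease mutations were placed in the animal's own App gene, so that App keeps its own promoter and no transgene is present. The other 40 libraries of the study cover both genotypes at 3 and 8 weeks, and the 20 libraries of week 8 were used here to ask which effects differed from that age. Each genotype at week 24 held 5 samples labelled male and 5 labelled female, combined in 1 comparison with sex as a covariate, as the design text states. All libraries were made from total RNA of whole frozen hippocampus after depletion of ribosomal RNA, so every cell type of the tissue contributes. The labels give no strain beyond the genotype and do not say that each sample came from a separate animal, so each p-value reflects only how far these samples differ from one another, which could be in part technical.

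Microglia are the resident macrophages of the brain. Near amyloid plaques they take up a plaque-associated state, marked by genes of phagocytosis, lipid handling and lysosomes, which depends on the receptor Trem2 and its adaptor Tyrobp. Astrocytes around plaques raise the filament protein Gfap and complement component 4, and excitatory neurons of the hippocampus transmit through synapses that complement proteins can tag for removal by microglia. The results are ordered from immune receptors and their signalling to glia and then to neuronal genes, and the genes of the plaque-associated state are given only briefly.

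The libraries of week 24 held 24.4 to 29.9 M counts in NLGF and 21.3 to 33.8 M in WT. The sex label matched Xist and Ddx3y in 20 of 20, and no pair of replicates was a duplicate (lowest chi-square per degree of freedom 10.5 over 40 pairs). The summed level of the choroid plexus markers spread widely in both genotypes, from 196 to 16285 CPM (counts scaled to a common library total) in NLGF with a median of 1075 and from 197 to 8546 CPM in WT with a median of 720.0. NLGF female 3 was highest in choroid plexus, ependyma, endothelium, mural cell and myelin markers and lowest in the synaptic vesicle list. Immediate early genes were highest in WT male 5, and the markers of excitatory neurons in WT female 4. In the same libraries several markers of T cells, B cells and neutrophils had few counts. Cd3e had 27 counts over all NLGF libraries and 18 over all WT libraries, Cd79a 27 and 27, and S100a8 15 and 11. Ms4a1 had 12 in NLGF and 4 in WT. Others had more: Lck had 307 and 269, Cd4 122 and 163, and Cd79b 51 and 19.

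Of 16508 genes tested, 132 rose and 13 fell in NLGF. A gene was called when its Benjamini-Hochberg adjusted p in edgeR's quasi-likelihood F-test was under 0.05, 2-sided, over all genes tested. That is 0.878% of the genes tested, with 0.8% called higher and 0.0787% called lower. At an unadjusted p under 0.05 there were 1484 genes (8.99%), with 4.8% higher and 4.19% lower. The plaque-associated microglia list supplied 20 of the 132, and 112 lay outside it. Most of the differences were small: 25 genes rose at least 2-fold and 107 by less, while the median log2 fold change over all genes tested was -0.00063. In 50 of the higher genes (0.303% of all genes tested) every NLGF library lay above every WT library, and in 0% of genes did every NLGF library lie below every WT library. All 132 higher and all 13 lower genes had the same direction in each sex. They were called on both sexes together, so this agreement is largely set by the selection.

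**Figure D1:**
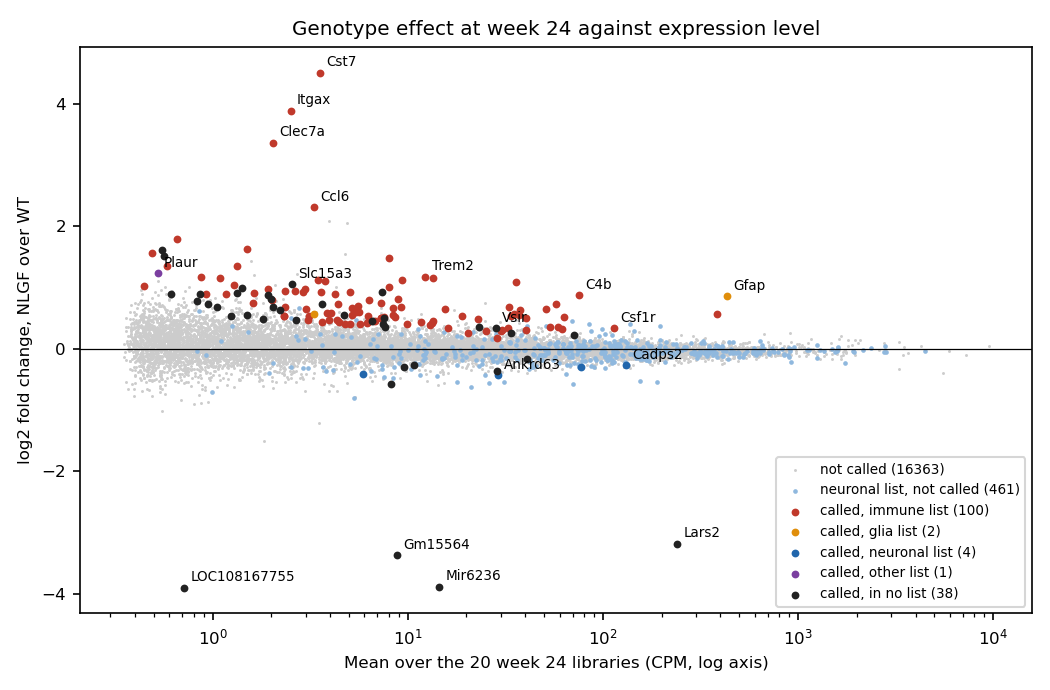
Each point is 1 of 16508 genes, placed by its mean over the 20 libraries (CPM, log axis) and its log2 fold change between NLGF and WT, with the 145 called genes in colour by class of list. The 132 higher genes reach from below 1 CPM to the level of Gfap, and the 4 points near -3 to -4 are Lars2, Mir6236, Gm15564 and LOC108167755.

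The list of haematopoietic signalling and cytoskeleton genes made up the longest group outside the plaque list. Its name does not give the source of the RNA, and which cells of the tissue made it was not measured. Of 43 members tested, 21 rose (against 0.8% of all genes tested) and 0 fell, with a median log2 fold change of 0.40 over all 43. This list and the others were chosen with earlier results of these data known. Ptpn6, a phosphatase that dampens signals from immune receptors (chromosome 6, 124720707 to 124738714), had the smallest p-value. For Ptpn6, NLGF libraries ranged from 4.71 to 6.18 CPM (median 5.41) and WT libraries from 2.57 to 4.26 CPM (median 3.27), with no overlap of the groups (log2 fold change 0.74 ± 0.0803, SE, adjusted p = 5.28e-06). Ptprc, which encodes the common leukocyte antigen CD45, is the phosphatase that opens signalling by Src-family kinases. For it, NLGF libraries ranged from 3.97 to 7.0 CPM (median 5.46) and WT libraries from 2.32 to 3.66 CPM (median 2.90), again without overlap (log2 fold change 0.89 ± 0.106, SE, adjusted p = 1.65e-05). Inpp5d, a lipid phosphatase that acts against the kinase Pik3cg and lies in a human risk locus for Alzheimer's disease, rose less but as evenly. Its NLGF libraries lay at 16.3 to 20.3 CPM (median 18.0) and its WT libraries at 12.97 to 15.6 CPM (median 14.1), and the log2 fold change was 0.34 ± 0.0473 (SE, adjusted p = 0.000129). Nckap1l, a subunit of the complex that drives branched actin in blood cells, did not overlap between the groups either: NLGF libraries ranged from 13.7 to 17.4 CPM (median 15.04) and WT libraries from 9.82 to 12.6 CPM (median 11.3) (log2 fold change 0.43 ± 0.0506, SE, adjusted p = 1.65e-05). Vav1, an exchange factor for Rac proteins, was at 4.12 to 5.74 CPM in NLGF and 2.96 to 4.72 CPM in WT, with 8 of 10 NLGF libraries above every WT library (log2 fold change 0.45 ± 0.0825, SE, adjusted p = 0.00445). Laptm5, Plek, Fyb, Lcp1, Unc93b1, Myo1f, Lyn, Dock2, Cd37, Hcls1, Cd53, Slco2b1, Apbb1ip, Pik3cg, Tbxas1 and Hmha1 completed the 21, with log2 fold changes of 0.26 (Slco2b1) to 0.68 (Tbxas1).

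**Figure D2:**
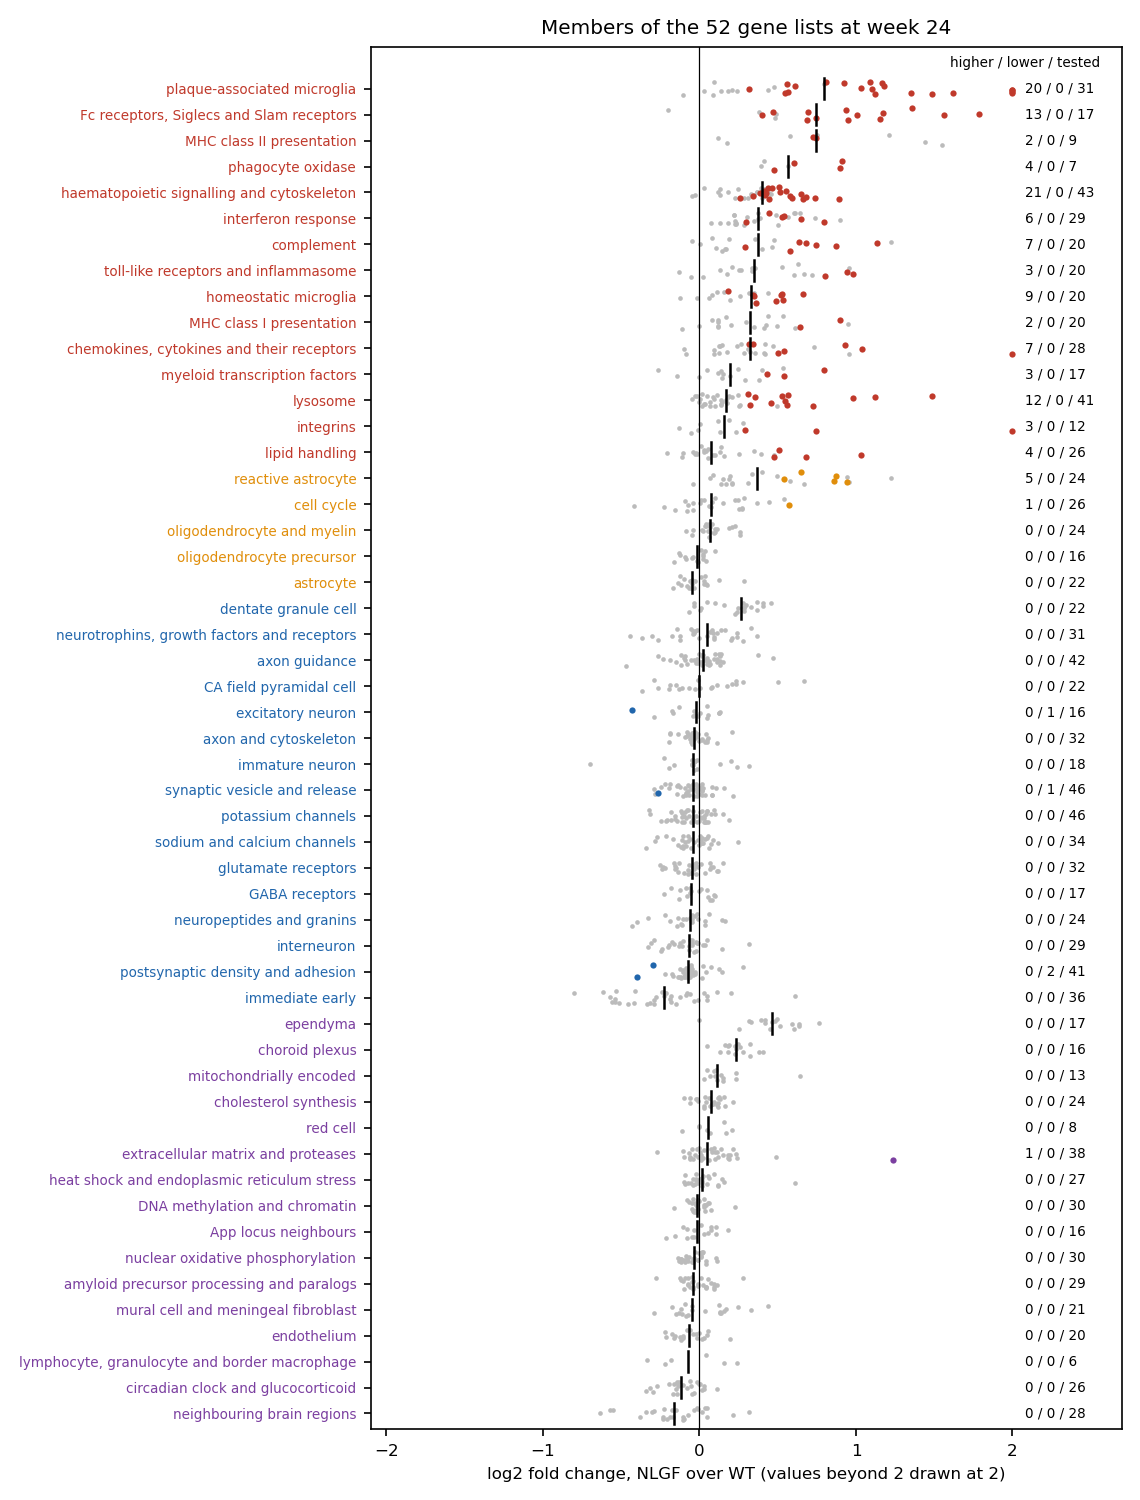
Each point is the log2 fold change of 1 tested member of a gene list (values beyond 2 drawn at 2), coloured where called, with a black bar at the list's median and the counts called higher, called lower and tested at the right. Most coloured points stand in the immune lists at the top, 4 neuronal points stand on the lower side, and the other neuronal members lie around 0.

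Several of these genes carry a short purine-rich sequence close to their start that factors of the ETS family such as PU.1 bind. The 250 bases before the start of Inpp5d, Vav1 and Samsn1, an adaptor in no list that was also called higher, are shown because these genes are outside the plaque list and place the sequence in its context; capitals mark GAGGAAGT or its reverse complement (RefSeq, GRCm38.p6).
Inpp5d (chr1:87620062-87620311, plus strand): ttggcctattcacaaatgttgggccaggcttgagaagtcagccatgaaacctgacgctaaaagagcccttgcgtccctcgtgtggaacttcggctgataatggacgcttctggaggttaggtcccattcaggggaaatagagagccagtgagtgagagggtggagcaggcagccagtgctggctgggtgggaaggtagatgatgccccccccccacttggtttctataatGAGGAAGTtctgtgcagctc
Vav1 (chr17:57278850-57279099, plus strand): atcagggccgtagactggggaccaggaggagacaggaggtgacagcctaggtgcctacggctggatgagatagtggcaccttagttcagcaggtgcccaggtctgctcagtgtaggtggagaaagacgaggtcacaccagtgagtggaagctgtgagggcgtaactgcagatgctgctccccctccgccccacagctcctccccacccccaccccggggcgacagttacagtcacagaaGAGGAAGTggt
Samsn1 (chr16:75909267-75909516, minus strand): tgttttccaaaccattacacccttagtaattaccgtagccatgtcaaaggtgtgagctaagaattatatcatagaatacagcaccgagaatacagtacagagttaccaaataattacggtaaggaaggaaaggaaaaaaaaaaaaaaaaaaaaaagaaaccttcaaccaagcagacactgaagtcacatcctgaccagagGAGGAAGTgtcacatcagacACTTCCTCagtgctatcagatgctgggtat
Of 132 genes called higher, 100 had an entry in the RefSeq promoter table, whose entries span 300 bases from 250 before to 50 after a start. GAGGAAGT, sought on both strands, was in a promoter of 16 of these 100 (16%), against 394 of 12076 tested genes with an entry (3.26%). Of the 17 called genes of the haematopoietic signalling list with an entry, 7 held it. The tested genes are those of every cell type in the tissue, and uncalled members of the same list were not counted. Spi1, the gene for PU.1, which defines the myeloid lineage, was called higher. It was at 2.34 to 4.48 CPM in NLGF (median 3.79) and 1.87 to 3.05 CPM in WT (median 2.46), so that 8 NLGF libraries lay above every WT library (log2 fold change 0.54 ± 0.120, SE, adjusted p = 0.0249). A match describes letters only, binding was not measured, and whether PU.1 acts on these genes was not tested.

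Receptors that read antibody, sialic acid and neighbouring immune cells were called in the greatest share outside the plaque list, 13 of 17 tested, with a median log2 fold change of 0.75. Over all genes tested 0.8% were called higher. Of the list's 25 members, 17 passed the filter on low counts. A low gene could pass it through the NLGF libraries alone, so this share and median depend in part on that filter. The inhibitory Fc receptor Fcgr2b (chromosome 1, 170958617 to 170976547) separated fully: NLGF libraries ranged from 2.79 to 4.46 CPM (median 3.35) and WT libraries from 1.19 to 2.25 CPM (median 1.82) (log2 fold change 0.95 ± 0.115, SE, adjusted p = 1.99e-05). Its activating counterpart Fcgr3 did so as well, and NLGF libraries ranged from 9.28 to 13.6 CPM (median 11.6) and WT libraries from 6.03 to 8.01 CPM (median 7.07) (log2 fold change 0.69 ± 0.0747, SE, adjusted p = 5.45e-06). Ly86, the partner of the toll-like receptor relative Cd180, showed no overlap: NLGF libraries ranged from 7.70 to 12.6 CPM (median 11.2) and WT libraries from 4.35 to 7.62 CPM (median 5.19) (log2 fold change 1.01 ± 0.108, SE, adjusted p = 4.91e-06). Receptors of the Slam family, which bind each other on touching blood cells, rose from low levels. Cd84 was the most abundant of them, and NLGF libraries ranged from 3.29 to 5.82 CPM (median 4.75) and WT libraries from 1.93 to 3.32 CPM (median 2.37) (log2 fold change 0.94 ± 0.109, SE, adjusted p = 1.45e-05). Ly9, Cd48 and Slamf9 had log2 fold changes of 1.79, 1.36 and 1.17. The sialic acid receptors Siglecf (1.15), Cd22 (1.56) and Cd33 (0.40), the adaptor Fcer1g (0.69), the checkpoint receptor Havcr2 (0.47) and the costimulatory ligand Cd86 (0.75) made up the rest. Siglecf had 8 NLGF libraries above every WT library, at 1.05 to 1.90 CPM against 0.346 to 1.15 CPM.

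In the complement list 7 of 20 rose (against 0.8% of all genes tested) and 0 fell, with a median of 0.38. The chains of C1q, the starter of the classical pathway, rose together: C1qa by 0.58, C1qb by 0.64 and C1qc by 0.68 on the log2 scale. For C1qb, NLGF libraries ranged from 38.5 to 54.6 CPM (median 46.3) and WT libraries from 25.1 to 35.5 CPM (median 29.5), with no overlap (log2 fold change 0.64 ± 0.0602, SE, adjusted p = 7.14e-07). Downstream, C3ar1, the receptor of a C3 fragment, had 3.88 to 5.50 CPM in NLGF and 1.33 to 3.001 CPM in WT (log2 fold change 1.13 ± 0.116, SE, adjusted p = 2.2e-06). Both subunits of complement receptor 3 were called, Itgb2 without overlap of the groups (log2 fold change 0.75 ± 0.0634, SE, adjusted p = 1.2e-07) and Itgam with 7 NLGF libraries above every WT library (log2 fold change 0.29 ± 0.0613, SE, adjusted p = 0.0179). Antigen presentation moved in parts. B2m, the shared light chain of class I molecules, rose: NLGF libraries ranged from 49.5 to 81.1 CPM (median 64.2) and WT libraries from 32.6 to 46.3 CPM (median 40.5) (log2 fold change 0.64 ± 0.0809, SE, adjusted p = 3.48e-05). Nlrc5, the activator of class I genes, was called as well (log2 fold change 0.90 ± 0.179, SE, adjusted p = 0.00966), and the other 18 of 20 class I members tested were not, although 10 members were higher at an unadjusted p under 0.05. The class I heavy chains H2-D1 and H2-K1, at log2 fold changes of 0.43 and 0.41, had adjusted p of 0.128 and 0.241, and they share sequence with other H2 genes, so their counts are uncertain. In class II presentation the protease Ctss was called without overlap (log2 fold change 0.73 ± 0.0558, SE, adjusted p = 2.89e-08), and all 9 tested members were above 0, with 7 higher at an unadjusted p under 0.05. H2-Ob, a class II chain in no list, was called as well (log2 fold change 0.89 ± 0.215, SE, adjusted p = 0.0495). The chains H2-Ab1 (1.21, adjusted p = 0.178) and H2-Aa (1.44, adjusted p = 0.308) and their chaperone Cd74 (1.55, adjusted p = 0.113) were not called. For Cd74 the NLGF libraries reached from 3.79 to 18.4 CPM and overlapped with the WT libraries at 1.89 to 6.92 CPM. The class II count went from 2 to 5 without WT male 4, and the class I count from 2 to 4 without NLGF female 2 and to 6 without WT male 4.

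Of 29 genes of the interferon response tested, 6 rose (against 0.8% of all genes tested) and 0 fell. All 29 had a log2 fold change above 0 (median 0.38). Irf8, a regulator of myeloid development as well as of interferon genes, was the only one of the 6 without overlap: NLGF libraries ranged from 5.63 to 9.16 CPM (median 8.30) and WT libraries from 4.11 to 5.16 CPM (median 4.53) (log2 fold change 0.79 ± 0.0774, SE, adjusted p = 1.03e-06). Its lowest NLGF value came from NLGF male 1. Gbp2, a guanylate-binding protein of host defence, was at 2.61 to 4.52 CPM in NLGF and 1.71 to 3.29 CPM in WT (log2 fold change 0.65 ± 0.143, SE, adjusted p = 0.0244). Trim30a, Irf9 and Xaf1 had log2 fold changes of 0.54, 0.45 and 0.53. This count depended on single libraries: it was 2 without each of NLGF female 3, NLGF male 4 and WT female 3, 3 without each of NLGF female 1, WT female 5 and WT male 5, and 10 without WT male 4. Capitals in the 2 sequences below mark GAAANNGAA, the core of the interferon-stimulated response element, or its reverse complement (RefSeq, GRCm38.p6); they are shown as the called genes of the list in which it lies before the start.
Gbp2 (chr3:142620413-142620662, plus strand): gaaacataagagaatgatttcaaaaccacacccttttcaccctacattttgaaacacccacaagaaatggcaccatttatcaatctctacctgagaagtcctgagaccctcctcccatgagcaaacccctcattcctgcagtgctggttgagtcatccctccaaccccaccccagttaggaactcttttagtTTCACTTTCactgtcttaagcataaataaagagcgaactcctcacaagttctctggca
Trim30a (chr7:104465194-104465443, minus strand): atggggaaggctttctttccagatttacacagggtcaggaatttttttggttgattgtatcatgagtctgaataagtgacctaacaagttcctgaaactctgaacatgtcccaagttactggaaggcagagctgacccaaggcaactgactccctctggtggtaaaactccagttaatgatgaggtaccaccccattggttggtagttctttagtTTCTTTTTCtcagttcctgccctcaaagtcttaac
These letters were in a promoter of 2 of 5 called interferon genes with an entry, of 16 of 100 called higher genes (16%) and of 1039 of 12076 tested genes (8.6%). The other 2 motifs sought on both strands were in fewer of the called higher genes. The lysosomal box GTCACGTG was in 2 of 100 called higher genes and 4.29% of tested genes, and the cAMP response element TGACGTCA in 2 of 100 and 3.39%.

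The phagocyte oxidase, which makes superoxide at the membrane of phagosomes, had 4 of 7 members called higher and all 7 higher at an unadjusted p under 0.05, with a median of 0.56. Hvcn1, the proton channel that balances its charge, was the one without overlap: NLGF libraries ranged from 1.61 to 2.58 CPM (median 2.15) and WT libraries from 0.875 to 1.46 CPM (median 1.10) (log2 fold change 0.91 ± 0.126, SE, adjusted p = 0.000148). The catalytic chain Cybb and its partner Cyba had log2 fold changes of 0.90 and 0.60. The lysosome list had 12 of 41 called higher, with a median of 0.17. For this list and the oxidase the share over all genes tested was 0.8%. Besides the plaque genes Cd68, Lyz2, Ctsd and Ctsz, the called members included the glycosidases Hexa (0.31), Gusb (0.46) and Man2b1 (0.33), the proteases Ctss (0.73) and Ctsh (0.55), the metal transporter Slc11a1 (0.98) and progranulin, Grn (0.36). Enzymes of eicosanoid synthesis were called in the lipid list, Tbxas1, which makes thromboxane, at 0.68 and Hpgds, which makes prostaglandin D2, at 0.48, with the nucleic acid degrading Pld4 at 0.51 and Ch25h at 1.03. That count of 4 of 26 fell to 2 without any 1 of 8 libraries (NLGF female 1, NLGF female 4, NLGF male 3, NLGF male 5, WT female 2, WT female 4, WT male 3 and WT male 5).

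Among toll-like receptors and inflammasome genes 3 of 20 rose and 0 fell, and among myeloid transcription factors 3 of 17 rose and 0 fell. Over all genes tested 0.8% were called higher. The receptor of the survival factor of microglia, Csf1r, was at 105 to 144 CPM in NLGF (median 128) and 90.2 to 115 CPM in WT (median 99.7), with 9 of 10 NLGF libraries above every WT library (log2 fold change 0.35 ± 0.0514, SE, adjusted p = 0.00036). Csf3r, the receptor of granulocyte colony-stimulating factor, rose from low levels, and NLGF libraries ranged from 5.28 to 8.37 CPM (median 6.52) and WT libraries from 2.31 to 5.51 CPM (median 3.54) (log2 fold change 0.93 ± 0.113, SE, adjusted p = 2.24e-05). Tgfb1, which keeps microglia in their resting state, did not overlap: NLGF libraries ranged from 7.85 to 10.6 CPM (median 8.02) and WT libraries from 5.23 to 6.88 CPM (median 5.95) (log2 fold change 0.50 ± 0.0730, SE, adjusted p = 0.00026). Cd14, the co-receptor of toll-like receptor 4, did not overlap either (log2 fold change 0.94 ± 0.136, SE, adjusted p = 0.000242), and Naip2, a sensor of the inflammasome, had 1.94 to 3.32 CPM in NLGF and 1.05 to 1.90 CPM in WT (log2 fold change 0.80 ± 0.133, SE, adjusted p = 0.00146). Naip2 belongs to a cluster of close copies, so its counts are uncertain. Tlr2 rose by 0.98, with 6 NLGF libraries above every WT library. Of 20 homeostatic microglia markers 9 rose (against 0.8% of all genes tested) and 0 fell, with a median of 0.33. Among them Cx3cr1, the fractalkine receptor, showed no overlap: NLGF libraries ranged from 53.3 to 67.4 CPM (median 61.2) and WT libraries from 44.1 to 52.9 CPM (median 47.4) (log2 fold change 0.36 ± 0.0427, SE, adjusted p = 1.65e-05). The purinergic receptor P2ry12 (0.11, adjusted p = 0.723) and Tmem119 (0.08, adjusted p = 0.821) were not called. In bulk tissue a greater number of microglia and more RNA of a gene per cell cannot be told apart. The summed level of the homeostatic markers was at 945 to 1038 CPM in NLGF (median 999) and 821 to 1095 CPM in WT (median 893). With the mean level of those markers as a covariate, 12 of the 145 calls were kept, among them Itgax, Cst7, Trem2, Itgb2 and Irf8. None of the 21 haematopoietic signalling genes was among the 12. Log2 fold changes under that covariate were 0.67 for Ptpn6 (adjusted p = 0.0977), 0.68 for Tbxas1 (adjusted p = 0.178) and 0.41 for Ptprc (adjusted p = 0.317). Without it they were 0.74, 0.68 and 0.89. That covariate is itself made of genes called in this comparison.

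**Figure D3:**
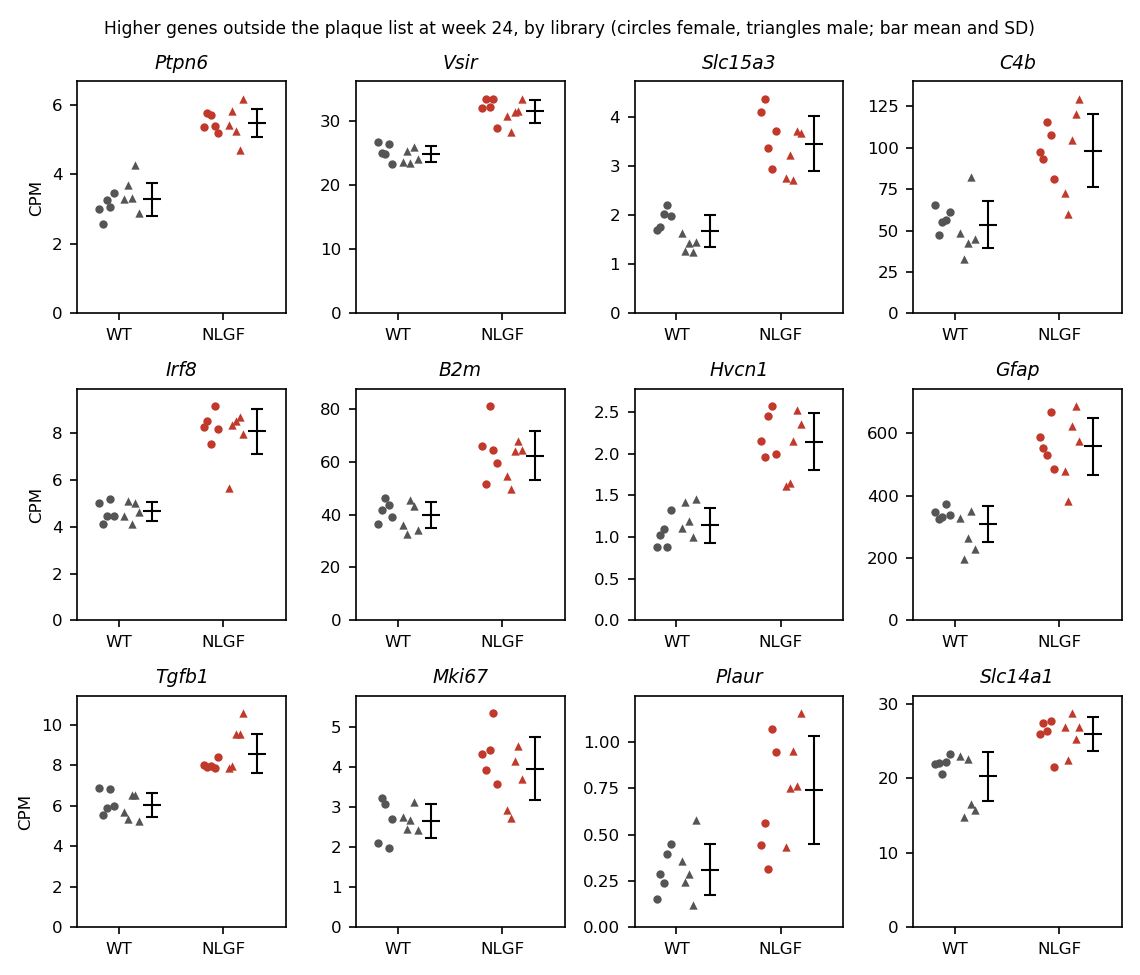
Level in CPM of 12 genes outside the plaque list in each of the 10 WT and 10 NLGF libraries (circles female, triangles male, bar mean and SD). Ptpn6, Vsir, Slc15a3, Irf8, B2m, Hvcn1, Gfap and Tgfb1 do not overlap between genotypes, while C4b, Mki67, Plaur and Slc14a1 do.

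Few genes of the astrocyte lists were called, and which cells made their RNA was not measured. Of 24 members of the reactive astrocyte list 5 rose (against 0.8% of all genes tested) and 0 fell (median 0.37). However, 4 of the 5 (Cd14, Gbp2, C4b and Osmr) stand in immune lists as well. Gfap (chromosome 11, 102887336 to 102900912) was the most abundant gene that rose. For Gfap, NLGF libraries ranged from 383 to 689 CPM (median 565) and WT libraries from 196 to 372 CPM (median 331), and the groups did not overlap (log2 fold change 0.86 ± 0.110, SE, adjusted p = 5.67e-05). For C4b, NLGF libraries ranged from 60.2 to 129.5 CPM (median 101) and WT libraries from 32.6 to 82.3 CPM (median 51.9), with 7 of 10 NLGF libraries above every WT library (log2 fold change 0.88 ± 0.154, SE, adjusted p = 0.00347). C4b has a near-identical copy, C4a, so its counts are uncertain. Osmr, the receptor of oncostatin M, rose by 0.54. Slc14a1, a urea transporter of astrocytes that stands in no list, rose as well: NLGF libraries ranged from 21.5 to 28.8 CPM (median 26.6) and WT libraries from 14.8 to 23.3 CPM (median 21.9) (log2 fold change 0.36 ± 0.0810, SE, adjusted p = 0.028). The reactive count was 3 without each of NLGF female 1, NLGF male 3, NLGF male 4 and WT male 5. General astrocyte markers were not called, 0 of 22, against 0.878% of all genes tested, with a median of -0.05. The water channel Aqp4 had the smallest p-value among them, at 0.29 with an adjusted p of 0.181, and the glutamine synthetase Glul was at -0.08. No oligodendrocyte marker (0 of 24) and no marker of their precursors (0 of 16) was called, at medians of 0.07 and -0.01. In lists of these sizes a count of 0 is close to the share over all genes. The nuclear protein Mki67, a marker of dividing cells, was the only one of 26 cell cycle genes called: NLGF libraries ranged from 2.72 to 5.35 CPM (median 4.04) and WT libraries from 1.97 to 3.22 CPM (median 2.69), with 8 NLGF libraries above every WT library (log2 fold change 0.57 ± 0.120, SE, adjusted p = 0.0157). Without the 4 libraries richest in the choroid plexus gene Ttr, the adjusted p of Mki67 was 0.0542. Top2a, a second gene of dividing cells, was at 0.54 with an adjusted p of 0.233.

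Of the 132 higher genes, 29 stood in no list. Slc15a3, a transporter of histidine and peptides in the membrane of lysosomes (chromosome 19, 10839727 to 10859362), led them: NLGF libraries ranged from 2.71 to 4.37 CPM (median 3.51) and WT libraries from 1.25 to 2.21 CPM (median 1.67), without overlap (log2 fold change 1.06 ± 0.103, SE, adjusted p = 1.03e-06). Vsir, which encodes the checkpoint protein VISTA, differed by a small and even step: NLGF libraries ranged from 28.2 to 33.5 CPM (median 31.8) and WT libraries from 23.4 to 26.7 CPM (median 24.97), also without overlap (log2 fold change 0.34 ± 0.0402, SE, adjusted p = 1.57e-05). Klhl6, an adaptor of ubiquitin ligases in lymphoid and myeloid cells, did not overlap (log2 fold change 0.82 ± 0.116, SE, adjusted p = 0.000202). Rasal3, a Ras-inactivating protein of blood cells, the adaptors Lat2 and Samsn1, the collagen receptor Lair1 and the paired receptor Cd300c2 had log2 fold changes of 0.63, 0.88, 0.91, 0.45 and 0.68. Cdk6, a kinase of the cell cycle, was at 0.55, the annexin Anxa3 at 0.40 and moesin, Msn, which links actin to the membrane, at 0.27. The helicase Ddx60 of antiviral defence was at 0.90. Bcl2a1b, Gm8995, Gm1966 and Rps26 are near-identical to other genes, and what was counted for them is uncertain. Plaur, the receptor of urokinase and the only called member of 38 in the matrix and protease list, rose from low levels: NLGF libraries ranged from 0.316 to 1.16 CPM (median 0.757) and WT libraries from 0.121 to 0.577 CPM (median 0.287) (log2 fold change 1.24 ± 0.275, SE, adjusted p = 0.0251).

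Neuronal genes were described by 16 lists of 465 tested genes. Of these 0 rose and 4 fell (0.86%, against 0.0787% of all genes tested called lower and 0.878% called in either direction), and the median log2 fold change was -0.04. Below 0 lay 299 of the 465 (64.3%), against 50.2% of all genes tested, and 32 were lower and 13 higher at an unadjusted p under 0.05. The median was 0.056 with the homeostatic microglia covariate, under which 0 neuronal genes were called lower and 1 higher, and -0.122 with Lars2 as a covariate. None of the 465 differed by more than 1 on the log2 scale. The lists were chosen with earlier results of these data known, so the shares called in them are no separate test of a neuronal decrease.

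The 4 that fell were Ankrd63, Cadps2, Ptpru and Kirrel2. Ankrd63, an ankyrin repeat protein from the excitatory neuron list (chromosome 2, 118699103 to 118703963), had the smallest p-value among them. For Ankrd63, NLGF libraries ranged from 20.96 to 29.3 CPM (median 24.2) and WT libraries from 26.4 to 41.3 CPM (median 32.3), and 8 of 10 NLGF libraries lay below every WT library (log2 fold change -0.43 ± 0.0769, SE, adjusted p = 0.00329). Cadps2 (chromosome 6, 23262773 to 23839421) prepares dense-core vesicles for release. For Cadps2, NLGF libraries ranged from 106 to 137 CPM (median 119) and WT libraries from 122 to 164 CPM (median 141), so that the groups overlapped in part, with 6 NLGF libraries below every WT library (log2 fold change -0.27 ± 0.0549, SE, adjusted p = 0.0143). Ptpru, a receptor tyrosine phosphatase that binds across cell contacts (chromosome 4, 131768457 to 131838288), overlapped through 2 NLGF libraries, at 86.9 and 76.4 CPM: NLGF libraries ranged from 57.3 to 86.9 CPM (median 68.8) and WT libraries from 72.6 to 94.4 CPM (median 87.5) (log2 fold change -0.30 ± 0.0633, SE, adjusted p = 0.017). Kirrel2, an adhesion protein of the immunoglobulin superfamily (chromosome 7, 30447534 to 30457690), was the least abundant: NLGF libraries ranged from 4.48 to 6.23 CPM (median 5.05) and WT libraries from 5.26 to 8.54 CPM (median 6.40) (log2 fold change -0.40 ± 0.0926, SE, adjusted p = 0.0353). Each of the 4 had the same sign in males and females, Ankrd63 at -0.42 and -0.43 and Cadps2 at -0.27 and -0.27. These values come from the libraries on which the genes were called, so they are no separate test. In the fits of females alone and of males alone 0 neuronal genes were called, from fewer samples. Kirrel2 lost its call in 13 of 20 fits without 1 library, and Ankrd63, Cadps2 and Ptpru in 0. Without the 4 libraries richest in Ttr, Ankrd63 kept an adjusted p of 0.0117, while Cadps2, Ptpru and Kirrel2 were at 0.157, 0.171 and 0.217. In 1 fit of all 60 samples none of the 4 was called.

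Outside the neuronal lists, Rhbdl3, a member of the rhomboid protease family (chromosome 11, 80300912 to 80355955), fell to a similar degree: NLGF libraries ranged from 20.8 to 29.6 CPM (median 25.3) and WT libraries from 27.6 to 40.5 CPM (median 32.3) (log2 fold change -0.36 ± 0.0661, SE, adjusted p = 0.00408). Lsm8 (chromosome 6, 18848579 to 18855751), a subunit of the ring that binds a spliceosomal RNA, had 8 NLGF libraries below every WT library: NLGF libraries ranged from 7.84 to 9.65 CPM (median 8.62) and WT libraries from 9.03 to 12.2 CPM (median 10.4) (log2 fold change -0.29 ± 0.0511, SE, adjusted p = 0.0028). Neither lost its call in any of the 20 fits without 1 library. Eif4e2, a cap-binding protein (-0.16), Trp53rka, a kinase gene named for p53 (-0.27), and the unnamed gene LOC108167575 (-0.57) were the others. They lost their calls in 15, 12 and 8 of the 20 fits without 1 library.

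**Figure D4:**
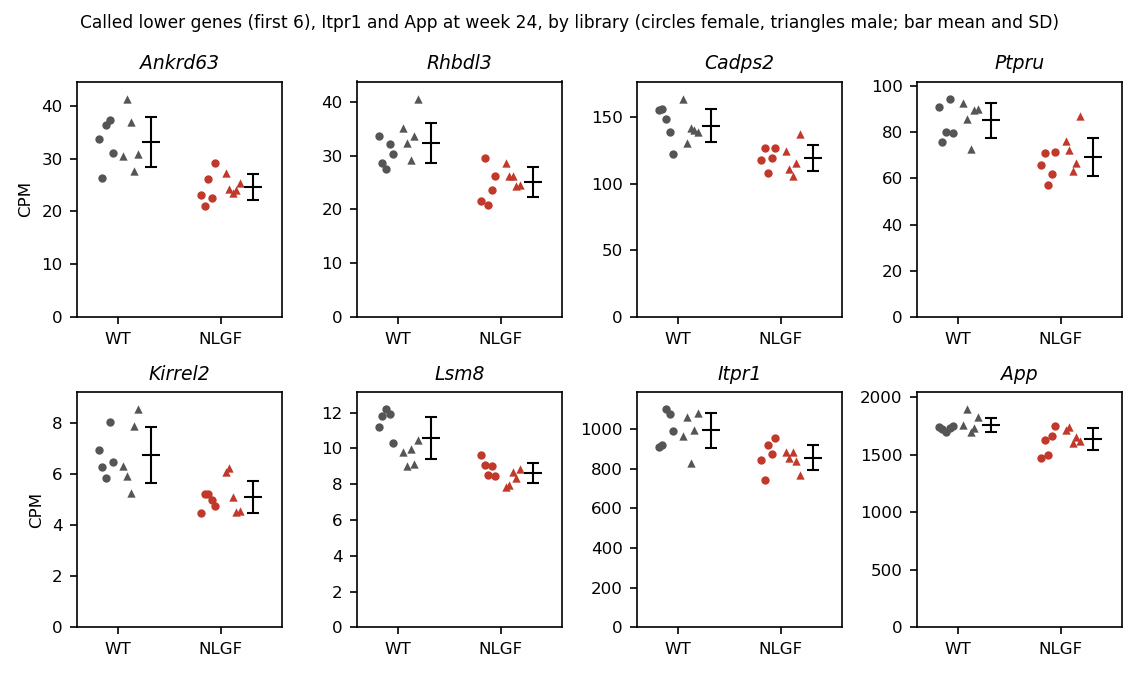
Level in CPM of Ankrd63, Rhbdl3, Cadps2, Ptpru, Kirrel2 and Lsm8, which were called lower, and of Itpr1 and App, which were not, in each week 24 library (circles female, triangles male, bar mean and SD). The groups overlap in every panel.

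By role, the receptor and channel lists held no called gene. Over all genes tested 0.878% were called in either direction, so a count of 0 in lists of these sizes is close to that share. Glutamate receptors and their partners had 0 of 32 called, with log2 fold changes of -0.26 to 0.15, and the AMPA receptor partner Cnih3 had the smallest p-value (-0.26, adjusted p = 0.396). GABA receptor genes had 0 of 17 called, all between -0.23 and 0.10, with Nlgn2, an adhesion protein of inhibitory synapses, at -0.13 (adjusted p = 0.515). Of 46 potassium channel genes 0 were called, with Kcnh3 at -0.22 (adjusted p = 0.47). Of 34 sodium and calcium channel genes 0 were called. Itpr1, which encodes a calcium release channel of the endoplasmic reticulum, came closest: NLGF libraries ranged from 743 to 953 CPM (median 863) and WT libraries from 831 to 1099 CPM (median 992) (log2 fold change -0.21 ± 0.0557, SE, adjusted p = 0.0904). Only 2 of its NLGF libraries lay below every WT library, and it was called without WT male 3 (adjusted p = 0.0282). In the postsynaptic density and adhesion list 34 of 41 were below 0, with a median of -0.07. The scaffolds Homer1 (-0.12, adjusted p = 0.283) and Shank1 (-0.22, adjusted p = 0.37) were not called. Of 24 neuropeptide and granin genes 0 were called and 19 were below 0, with the secreted Vgf at -0.22 (adjusted p = 0.373) and Chga at -0.19 (adjusted p = 0.464). Of 29 interneuron genes 24 were below 0, with a median of -0.06, and Slc32a1, the vesicular GABA transporter, was at -0.20 (adjusted p = 0.485).

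The dentate granule cell and CA field lists held no called gene, which is close to the 0.878% called over all genes tested. Dentate granule cell genes had a median of 0.26, with 19 of 22 above 0 and 0 called, and 6 were higher at an unadjusted p under 0.05. Prox1, the factor that defines granule cells, was at 101 to 217 CPM in NLGF (median 158) and 58.6 to 179 CPM in WT (median 121), with broad overlap (log2 fold change 0.41 ± 0.177, SE, adjusted p = 0.5). Its difference was 0.71 in males and 0.11 in females. CA field pyramidal genes had a median of -0.0044 over 22, and 0 were called. Summed over the granule cell list, libraries ranged from 1279 to 2172 CPM in NLGF and from 1020 to 1867 CPM in WT, and genes of neighbouring brain regions from 709.9 to 1345 CPM and from 782 to 1501 CPM. Whether the cut of the tissue differed between the groups was not tested.

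Immediate early genes, which neurons switch on within minutes of activity, had the lowest median of the neuronal lists, -0.22, with 30 of 36 below 0 and 0 called. At an unadjusted p under 0.05, 8 of the 36 were lower and 1 higher, against 4.19% and 4.8% of all genes tested. Arc, which acts at active synapses, was at 93.6 to 286 CPM in NLGF (median 119) and 94.3 to 535 CPM in WT (median 177), with a difference of -0.54 ± 0.284 on the log2 scale (SE, adjusted p = 0.594). WT male 5 held the highest value of Arc, and the groups overlapped over most of their range. Fos (-0.62, adjusted p = 0.665), Nr4a1 (-0.57, adjusted p = 0.5) and Egr1 (-0.52, adjusted p = 0.532) lay in the same direction, and Atf3, a stress factor, in the other (0.61, adjusted p = 0.269). Clock and glucocorticoid genes, which vary with the hour and with handling, were also mostly below 0, 21 of 26, with 0 called. Of these 26, 7 were lower and 0 higher at an unadjusted p under 0.05. Per1 (-0.32, adjusted p = 0.334), Per2 (-0.30, adjusted p = 0.253) and Tsc22d3, a target of glucocorticoids (-0.34, adjusted p = 0.131), had the smallest p-values. The labels give no hour of collection, so its part in these values was not tested.

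App, which carries the knock-in mutations (chromosome 16, 84949685 to 85173766), was not called. For App, NLGF libraries ranged from 1474 to 1751 CPM (median 1642) and WT libraries from 1695 to 1893 CPM (median 1735), and 7 NLGF libraries lay below every WT library (log2 fold change -0.10 ± 0.0383, SE, adjusted p = 0.375). At week 8 the log2 fold change of App was -0.21 ± 0.0514 (SE), and the difference between the ages was not called. In the list of App processing genes and paralogs 0 of 29 were called, with a median of -0.04, and in the 16 neighbours of App on its chromosome 0 were called, with a median of -0.01. Nuclear genes of oxidative phosphorylation (0 of 30 called), cholesterol synthesis (0 of 24), DNA methylation and chromatin (0 of 30) and endothelium (0 of 20) had medians between -0.07 and 0.07. All these counts of 0 are close to the 0.878% called over all genes tested.

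The largest decreases in counts belonged to 4 genes that varied together between libraries. Whether the reads counted for them came from their own transcripts was not tested. Lars2, the mitochondrial leucyl-tRNA synthetase (chromosome 9, 123366927 to 123462666), was at 18.3 to 270.2 CPM in NLGF with a median of 22.8 and at 48.4 to 777 CPM in WT with a median of 398. The 5 male NLGF libraries lay within 18.3 to 24.7 CPM, whereas NLGF female 3 stood at 270.2 and female 2 at 114 CPM, inside the WT range (log2 fold change -3.18 ± 0.645, SE, adjusted p = 0.0183). Gm15564, an antisense transcript (chromosome 16, 35966752 to 35983230), was at 0.232 to 8.70 CPM in NLGF and 1.31 to 32.1 CPM in WT (log2 fold change -3.36 ± 0.712, SE, adjusted p = 0.0244). The strand setting of the counting is not given in the sources used here, so its reads cannot be told apart from those of a gene on the other strand. Mir6236, annotated as a miRNA gene on the chromosome of Lars2 (chromosome 9, 110281287 to 110281409), was at 0 to 14.4 CPM in NLGF and 1.71 to 47.2 CPM in WT (log2 fold change -3.88 ± 0.889, SE, adjusted p = 0.0457). LOC108167755, an unnamed gene, was at 0 to 0.554 CPM in NLGF and 0.0408 to 3.66 CPM in WT (log2 fold change -3.90 ± 0.711, SE, adjusted p = 0.00476). In all 4 the highest NLGF library was female 3, the highest WT library was male 4 and the lowest WT library was female 2. At week 8 the mean of Lars2 was 148 ± 252 CPM over 10 NLGF libraries and 67.4 ± 93.4 CPM over 10 WT libraries (SD), so its spread there exceeded the means. The mature sequence of the miRNA is shown, with the seed (bases 2 to 8) in capitals, because the reads counted for this gene were not resolved into mature and longer RNA (RefSeq, GRCm38.p6).
mmu-miR-6236: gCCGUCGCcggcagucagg
With Lars2 as a covariate 60 genes were called, 59 higher and 1 lower, of which 54 were among the 145, and Ankrd63, Cadps2, Ptpru and Rhbdl3 had adjusted p of 0.359, 0.201, 0.237 and 0.206. Their log2 fold changes were then -0.35, -0.32, -0.36 and -0.38. Lars2 differs between the genotypes, so this covariate also takes up part of the genotype effect.

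To ask which of these effects differed from those of younger animals, the genotype effect at week 24 was compared with that at week 8 over 40 libraries. In 58 genes the effect was higher at week 24 and in 3 it was lower, of 17348 tested (0.352%, with 0.334% higher), and 56 of the 58 were called at week 24. The same week 24 libraries entered both tests, so this overlap is largely set by the design. Haematopoietic signalling genes were among the 58: for Ptpn6 the log2 fold change was 0.74 at week 24 and -0.21 at week 8, a difference of 0.94 (adjusted p = 1.18e-05). Of the reactive astrocyte list, Gfap (0.86 and -0.06, adjusted p = 0.00785) and C4b (0.87 and -0.15, adjusted p = 0.00795) differed between the ages. C4b stands in the complement list as well. Vsir (0.34 and -0.09, adjusted p = 0.00352), Slc15a3 (1.06 and 0.11, adjusted p = 3e-04) and Irf8 (0.79 and -0.05, adjusted p = 3e-04) also differed. B2m, at 0.64 and 0.24, did not pass (adjusted p = 1), nor did Mki67, at 0.57 and 0.04 (adjusted p = 0.701). The mean level of Mki67 was 4.76 ± 1.40 CPM in WT and 4.92 ± 0.863 CPM in NLGF at week 8. At week 24 it was 2.63 ± 0.415 and 3.93 ± 0.770 CPM (SD, n = 10 each), and these levels were not tested between ages.

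The 4 lower neuronal genes and Rhbdl3 were not called for a difference between the ages. Ankrd63 was at -0.43 at week 24 and -0.19 at week 8, Rhbdl3 at -0.36 and -0.23, Kirrel2 at -0.40 and -0.36, Cadps2 at -0.27 and -0.06 and Ptpru at -0.30 and -0.07, each with an adjusted p of 1 for the difference. The standard error of these differences was 0.126 (Cadps2) to 0.198 (Kirrel2), and the week 24 and week 8 effects were not shown to be equal. The 3 genes lower at week 24 than at week 8 were the unnamed LOC108167575 (-0.57 and 0.48), LOC108168884 (-0.83 and 0.53) and Cox8a, a subunit of cytochrome oxidase (-0.10 and 0.22). For the library NLGF female 1 of week 8 the title gives 8 weeks while the age entry reads 3, and it was kept at 8.

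**Figure D5:**
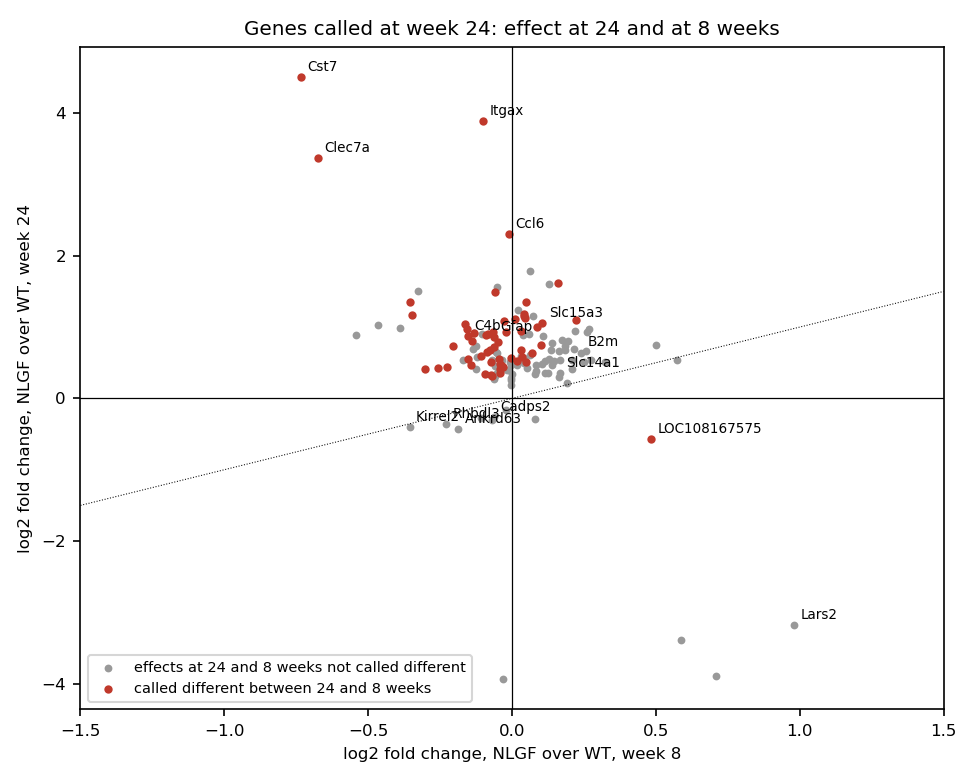
Each point is 1 of the 145 genes called at week 24, placed by its log2 fold change of NLGF over WT at week 8 and at week 24 (separate libraries), red where the effects were called different; the dotted line marks equal effects. Most higher genes stand near 0 on the week 8 axis, while Kirrel2 and Rhbdl3 lie close to the dotted line.

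The genotype effect was also compared between the sexes. For males minus females 0 of 16508 genes were called in edgeR (0%) and 0 in DESeq2, with 486 and 777 at an unadjusted p under 0.05. Each group then held 5 libraries, so small differences between the sexes would not be detectable. Lars2 was at -4.60 in males and -1.82 in females (adjusted p = 1 for the difference). The authors' deposited table listed 156 genes at this age, 147 higher and 9 lower, with a largest adjusted p of 0.0583. Of these 125 were among the 145 called here, which is 80.1% of that table and 86.2% of the calls here. It held 120 of the 132 higher genes and 5 of the 13 lower ones (Lars2, Gm15564, Mir6236, LOC108167755 and Eif4e2), and none of Ankrd63, Cadps2, Ptpru, Kirrel2, Rhbdl3 and Lsm8.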

How the data were processed

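RNA of whole hippocampus was sequenced after depletion of ribosomal RNA, and 1 column per sample was deposited. The authors deposited raw counts per gene symbol for 60 samples. The submitters' processing notes name FastQC, STAR, edgeR, DESeq2 and the mm10 build, with no roles. How reads were counted, with which annotation and strand setting, is not given in the sources used here. The authors' deposited table of NLGF over WT holds only genes past their threshold, with a mean normalised signal, log2 fold changes with their errors, and unadjusted and adjusted p-values, per the file headers. It was used only to count shared genes.

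The deposited counts were analysed in R 4.3.3 with edgeR 4.0.16. The 20 libraries of week 24 entered 1 fit with sex as a covariate, without the other ages, so that the spread came from the groups compared. Genes passed filterByExpr at a minimum count of 10, libraries were scaled by TMM, and the robust quasi-likelihood F-test was adjusted by Benjamini and Hochberg over all genes tested, 2-sided, at 0.05. Each standard error is the log2 fold change divided by the square root of F. CPM values are TMM-scaled and are not corrected for gene length. The difference from week 8 was an interaction term over 40 libraries, and that between the sexes an interaction term over 20. On simulated counts for 16390 genes of this comparison, the fit recovered 34% of 50 genes changed 1.2-fold, 68% at 1.3-fold, 88% at 1.5-fold and 96% at 2-fold, and 2.72% of its calls were false. Small differences were therefore often not detectable at 10 libraries a group and the depth given in the report. Alternatives included DESeq2 1.42.0, voom in limma 3.58.1, other filters, scalings and covariates, and leaving out each library.

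The comparison and its 52 gene lists were chosen with earlier results of these data known. Of 1292 list members, 1204 were tested. Ahsp, Ighm, Igkc, Trac and Trbc2 had no entry under these symbols, and Arhgap45, Cd244a and Scn2a were matched as Hmha1, Cd244 and Scn2a1. Genes were named by rule: App, the 12 higher and 15 lower calls of largest fold change at a mean of at least 1 CPM, the 30 calls in no list and up to 4 calls per list of smallest p, the 2 smallest p-values of each neuronal list, every neuronal call, and the 10 smallest p-values of the difference from week 8. Other genes were named after their values were seen. Results of some genes are not reported here. The coordinates of 142 of 145 called genes came from a gene annotation of mm10, and promoters of 109 from RefSeq on GRCm38.p6.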

Additional observations from a re-analysis of the deposited data

Results flagged for a closer look

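In 37 of 348 sets of 10 libraries (1 gene or list in 1 genotype) the highest or lowest library stood apart from the other 9; chance gives about 1 in 20. NLGF female 3 was that library for Lars2 (270.2 CPM), Mir6236 (14.4 CPM), LOC108167755 (0.554 CPM), Msn (47.7 CPM), Tlr2 (4.43 CPM) and Cd52 (3.60 CPM). The same library had the highest summed level of the plaque-associated microglia list (3075 CPM), the lysosome list (5557 CPM), MHC class I presentation (375 CPM), choroid plexus (16285 CPM), endothelium (1054 CPM), mural cells (996 CPM) and ependyma (163 CPM), and the lowest of the synaptic vesicle list (17841 CPM). Cd68 (9.01 CPM) and Irf8 (5.63 CPM) were lowest in NLGF male 1. Ch25h (1.32 CPM) was highest in NLGF male 5 and the red cell list (600.0 CPM) in NLGF female 2.

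Among WT libraries, female 4 stood highest for Csf3r (5.51 CPM), Laptm5 (43.5 CPM), Rasal3 (2.66 CPM), Fgf2 (1.67 CPM), Robo3 (7.57 CPM) and Itpka (228 CPM). It was also highest for the summed lists of chemokines (989 CPM), excitatory neurons (13726 CPM), CA field pyramidal cells (1939.7 CPM) and the postsynaptic density (17595 CPM). WT male 3 stood highest for the plaque genes Cst7 (1.27 CPM) and Clec7a (0.904 CPM) and for Slc32a1 (115 CPM). WT male 5 stood highest for Vgf (304 CPM) and the immediate early list (3337 CPM). WT male 4 stood highest for MHC class I presentation (279 CPM), the lysosome list (4752 CPM), endothelium (1021 CPM) and mural cells (823 CPM).

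The effect of genotype differed between week 24 and week 8, by edgeR's interaction test with adjusted p-values, in the 10 genes with the smallest p-values. The differences of the log2 fold changes were 5.24 in Cst7, 4.04 in Clec7a, 3.99 in Itgax, 2.32 in Ccl6, 1.13 in Trem2, 1.12 in Tyrobp, 1.11 in Mpeg1, 1.11 in Cd68, 0.94 in Ptpn6 and 0.79 in Ctss, with adjusted p from 3.93e-10 (Itgax) to 1.18e-05 (Ptpn6).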

How the results depend on the processing

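The week 24 count of 145 genes (132 higher, 13 lower) stayed within 1.5 times under RLE scaling, other filters, voom, no sex term and the tissue marker covariate, except that voom gave 20 lower. DESeq2 gave 230 with 37 lower, and the fit of 60 samples gave 2 lower. Females alone gave 44 (44 higher, 0 lower) and males alone 37 (33 higher, 4 lower), from fewer samples. Without the 4 libraries richest in Ttr 103 were higher and 9 lower. The Lars2 covariate gave 60 (59 higher, 1 lower), and the homeostatic microglia covariate 41 (19 higher, 22 lower). The last 3 were chosen after seeing the data. Without 1 library the count was 115 to 168 and the lower count 6 to 17; it was 6 without NLGF male 4, 7 without NLGF female 4, 7 without NLGF male 5 and 8 without NLGF male 3. The lower count of the difference from week 8 (3) was 1 with no filter, 0 in the fit of 60 samples, 7 with DESeq2 and 2 to 5 without 1 library, 5 without either week 24 NLGF female 5 or week 8 WT male 5. The sex difference gave 0 in every setting run.

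With the homeostatic covariate the log2 fold change changed sign, and the cause was not tested, in Gm1966 (-0.057), C4b (-0.0066), Msn (-0.029), Itgam (-0.060), Tlr2 (-0.25), Atf3 (-0.46), Stxbp6 (-0.18), Robo3 (-0.088), Rfx3 (-0.48), Trpc6 (-0.33) and Neurod1 (-0.24), and upward in Vgf (0.091), App (0.068), Cnih3 (0.14), Chga (0.36), Kcnh3 (0.13), Slc32a1 (0.18), Stmn4 (0.19), Nlgn2 (0.17), Gabrg3 (0.039), Vip (0.38), Kcnh7 (0.12) and Plxna2 (0.11). With the Lars2 covariate Gm15564 changed sign (0.029). No named gene changed sign without 1 library.

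Neuronal genes called lower, 4 in the report, numbered 5 in DESeq2, 3 with the replicate block and 0 with either the Lars2 or the homeostatic covariate. With the replicate block 145 genes were called at week 24 (130 higher, 15 lower), of which 122 were shared, and 6 of the lower ones. For the difference from week 8 the block gave 51 (49 higher, 2 lower), and for the sexes 0. Same-numbered samples correlated at -0.06 to 0.45, with 7 of 10 pairs best with their own number, a hint from the data and not from the design. The lowest correlations lay below 0 and the labels give no shared litter or day, so the samples were not treated as paired.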

Other observations

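Among chemokines, cytokines and their receptors 7 of 28 tested genes were called higher (against 0.8% of all genes tested) and 0 lower, with a median log2 fold change of 0.32. Besides Csf1r, Csf3r, Tgfb1 and Osmr they were Ccl6, Cxcl16 and Csf1. Cxcl16, a chemokine made as a membrane protein, was at 1.26 to 2.45 CPM in NLGF (median 1.69) and 0.530 to 1.25 CPM in WT (median 0.788), with all 10 NLGF libraries above every WT library (log2 fold change 1.04 ± 0.168, SE, edgeR adjusted p = 0.00103). Csf1, a ligand of Csf1r, was at 28.9 to 38.6 CPM in NLGF and 21.0 to 31.3 CPM in WT, with 7 NLGF libraries above every WT library (0.32 ± 0.0677, SE, adjusted p = 0.0191). Of 12 integrins 3 were called, Itgax, Itgb2 and Itgam, which are chains of integrins of myeloid cells. The broadly made Itgb1 (0.01, adjusted p = 0.979) and Itgav (-0.05, adjusted p = 0.845) were not. Irf5, a factor downstream of toll-like receptors, was called as well (log2 fold change 0.43 ± 0.0802, SE, adjusted p = 0.00465), although only 3 of its NLGF libraries lay above every WT library.

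Markers of macrophages at the borders of the brain did not separate the genotypes. Mrc1, the mannose receptor, was at 2.98 to 5.38 CPM in NLGF and 2.46 to 6.51 CPM in WT (0.04, adjusted p = 0.946). Cd163, a receptor of haemoglobin complexes, was at 0.644 to 1.94 CPM in NLGF and 0.962 to 2.79 CPM in WT (-0.34, adjusted p = 0.628). Genes of heat shock and endoplasmic reticulum stress had 0 of 27 called, against 0.878% of all genes tested, and a median of 0.01. All 13 mitochondrially encoded genes had a log2 fold change above 0, with a median of 0.11 and 0 called, and their summed level was 20958 to 28712 CPM in NLGF and 19375 to 30567 CPM in WT.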
